A study of Mus musculus with 5 samples.

Results

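Pou4f1 CUT&Tag signal over the long promoter regions of the embryonic mouse retina is described here. A region of the deposited table was counted as a broad single-gene coding promoter where it was 1500 bp or longer and its midpoint lay within 1 kb of a transcript start of exactly 1 protein-coding gene in GENCODE M21. Of the 8038 regions, 4278 were single-gene coding promoters by position, and 529 of these were broad (12.4%), belonging to 526 genes. The 3749 shorter ones, called narrow here, are the comparison. The 529 broad promoters held 20.8% of the bases of all single-gene promoter regions. All libraries came from wildtype (WT) retinas at E16.5, 4 retinas pooled per sample and dissociated with papain. The Pou4f1 group (n = 2) was made with a rabbit anti-Pou4f1 antibody and the control group (n = 2) with rabbit IgG. Nothing in the labels says that the pools were separate litters, so p-values measure the spread between these libraries, which may be technical. Another 411 regions of 1500 bp or more were not single-gene promoters and are left out.

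Pou4f1 (Brn3a) is a POU homeodomain transcription factor of retinal ganglion cells (RGCs), the projection neurons that carry visual signals from the eye to the brain. In CUT&Tag, an antibody tethers a transposase to chromatin, and the transposase cuts and tags open DNA close to the antibody's target. Most vertebrate promoters lie in CpG islands, stretches rich in G, C and CpG dinucleotides, and the promoters of developmental regulators and of highly transcribed genes often have long islands and wide domains of active chromatin. A retina at this age mixes progenitors, newborn RGCs and other early neurons, and these libraries were not sorted by cell type. Expression was not measured in them, so the retina label could not be checked against marker transcripts.

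The sequences under these regions were read first, because the letters were not used to choose the regions. The POU consensus, an AT-rich pattern of 10 bases that POU factors such as Pou4f1 recognise, was searched on both strands. It lay in the central 200 bp of 4 of the 529 broad promoters (0.756%, 95% exact binomial interval 0.206 to 1.92), of 0.507% of the narrow ones and of 4.38% of all regions in windows of the same length. In windows of that length 2 kb to either side it was in 0.662% for broad promoters, close to the share at their centres, in 0.894% for narrow ones and in 0.916% for all regions. The 4 are those of Prima1, Adam11, Baz2b and Kcnc1, and they are shown because they hold this pattern at the centre. Prima1 encodes the membrane anchor of acetylcholinesterase, Adam11 a synaptic membrane protein, Baz2b a bromodomain protein and Kcnc1 a fast voltage-gated potassium channel. Capitals mark the consensus, letters read along the strand of the gene, and exons were trimmed off. In GRCm38 (mm10) they are chr12:103242700-103242899 on the minus strand for Prima1, chr11:102762857-102763056 on the plus strand for Adam11, chr2:60090071-60090167 on the minus strand for Baz2b and chr7:46422210-46422409 on the plus strand for Kcnc1.
Prima1: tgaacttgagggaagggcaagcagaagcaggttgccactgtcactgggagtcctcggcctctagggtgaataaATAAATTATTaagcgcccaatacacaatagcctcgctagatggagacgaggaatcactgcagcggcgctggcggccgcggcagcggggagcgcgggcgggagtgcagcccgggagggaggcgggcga
Adam11: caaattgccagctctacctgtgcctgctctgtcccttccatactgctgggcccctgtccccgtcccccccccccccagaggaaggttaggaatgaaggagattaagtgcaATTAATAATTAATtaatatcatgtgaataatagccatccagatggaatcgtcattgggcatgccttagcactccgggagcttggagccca
Baz2b: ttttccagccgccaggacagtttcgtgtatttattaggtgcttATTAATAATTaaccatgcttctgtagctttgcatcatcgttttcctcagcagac
Kcnc1: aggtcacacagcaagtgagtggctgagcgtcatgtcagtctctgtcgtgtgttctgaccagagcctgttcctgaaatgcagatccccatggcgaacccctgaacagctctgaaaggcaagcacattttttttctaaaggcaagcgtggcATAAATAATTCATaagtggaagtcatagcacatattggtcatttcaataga
The Prima1 stretch lay before the start of the gene and held 16 CpGs in its 200 bases. The Adam11 and Kcnc1 stretches lay in introns and held 3 and 4 CpGs in the same length.

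Over the whole region, 29 broad promoters held the consensus (5.48%), against 1.97% of narrow and 11.1% of all regions, but these windows differ in length. Among the 29 were the promoters of Slc17a6, which encodes the vesicular glutamate transporter that RGCs use, of the synaptotagmin gene Syt13, and of the homeobox genes Dlx1 and Nkx6-2. These 4 were picked from the 29 after their values were seen. Their sites are shown with up to 30 bases on either side. They lie at chr7:51624524-51624593 (plus strand) for Slc17a6, chr2:92916114-92916183 (plus) for Syt13, chr2:71530614-71530683 (plus) for Dlx1 and chr7:139581240-139581269 (minus) for Nkx6-2, where the site is in an exon.
Slc17a6: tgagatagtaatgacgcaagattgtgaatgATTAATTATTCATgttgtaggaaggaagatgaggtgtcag
Syt13: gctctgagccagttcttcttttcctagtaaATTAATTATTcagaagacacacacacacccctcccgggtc
Dlx1: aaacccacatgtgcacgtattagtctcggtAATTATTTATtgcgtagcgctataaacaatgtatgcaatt
Nkx6-2: tgtataatcaATAAATTATTtaacacgtcc

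Other short motifs were also counted in the central 200 bp on both strands. CCGGAAGT, the pattern of ETS factors that is common at the core of housekeeping promoters, was found in 3 broad promoters (0.567%, 0.117 to 1.65) and in 110 narrow ones (2.93%, 2.42 to 3.53), with 2.03% over all regions. The 3 are Lbr, which encodes the lamin B receptor, Tomm70a, a mitochondrial import receptor, and Daxx, a histone chaperone. They are shown beside the narrow promoter of the RNA helicase gene Ddx39b, with the motif or its reverse complement in capitals. Coordinates are chr1:181842126-181842287 (minus) for Lbr, chr16:57121476-57121675 (plus) for Tomm70a, chr17:33909411-33909440 (plus) for Daxx and chr17:35241775-35241804 (plus) for Ddx39b. In the last pair the motif lies in an exon and 30 bases are given.
Lbr: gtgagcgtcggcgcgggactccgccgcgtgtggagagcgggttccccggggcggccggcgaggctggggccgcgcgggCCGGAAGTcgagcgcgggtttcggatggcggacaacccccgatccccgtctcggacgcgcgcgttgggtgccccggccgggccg
Tomm70a: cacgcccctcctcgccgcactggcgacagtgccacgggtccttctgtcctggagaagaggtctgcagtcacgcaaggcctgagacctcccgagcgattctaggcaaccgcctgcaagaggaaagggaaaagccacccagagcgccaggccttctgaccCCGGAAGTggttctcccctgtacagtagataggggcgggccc
Daxx: cACTTCCGGctctaagcggcctgggtcccg
Ddx39b: cgagcctggaaCCGGAAGTgaaggcagctt
Lbr had 305 and 246 in Pou4f1 replicates 1 and 2 against 0 and 18.7 in the IgG libraries, Tomm70a 236 and 165 against 7.05 and 16.2, and Daxx 241 and 135 against 12.9 and 54.2. TGACGTCA, the cyclic AMP response element, was in 0.189% of broad and 1.09% of narrow centres (0.959% of all regions). The GC box GGGCGG was in 46.9% and 55.6% (37.5% of all), and CCAAT in 18.7% and 22.6% (22.8% of all). TATAAA was in 2.27% and 1.84% (5.01% of all), the octamer ATGCAAAT in 0.567% and 0.533% (0.747% of all) and TAATTA in 0.378% and 0.560% (3.49% of all). The centre of a broad region can lie further from the start than that of a narrow one, so these windows do not sample the same part of a promoter. Over the whole region, CCGGAAGT was in 6.62% of broad and 8.62% of narrow promoters (6.24% of all regions). The octamer was in 5.29% and 2.24% (3.64% of all), a rise like that of the POU consensus. Whole regions differ in length.

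Base composition was close in the groups. The median GC content was 62.5% in broad and 63.2% in narrow promoters, and the median CpG observed-to-expected ratio was 0.743 and 0.778. With the greater length, the median number of CpGs per region was 127 against 72. The 233 bases before the RefSeq start of Slit2 and the 250 before that of Pou4f2 are shown as examples, with CpGs in capitals. Slit2 encodes a secreted axon repellent and Pou4f2 the paralogue of Pou4f1 needed for RGC survival. The sequences are from RefSeq (GRCm38), chr5:47982905-47983137 on the plus strand with 23 CpGs and chr8:78436648-78436897 on the minus strand with 17. The broad region of Slit2 covers the whole of its stretch, and that of Pou4f2 begins within it and goes on upstream.
Slit2: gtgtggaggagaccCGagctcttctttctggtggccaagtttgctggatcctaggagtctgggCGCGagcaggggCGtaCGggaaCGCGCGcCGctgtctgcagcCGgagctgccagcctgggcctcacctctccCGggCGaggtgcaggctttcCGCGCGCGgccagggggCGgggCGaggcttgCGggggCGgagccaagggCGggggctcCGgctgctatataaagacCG
Pou4f2: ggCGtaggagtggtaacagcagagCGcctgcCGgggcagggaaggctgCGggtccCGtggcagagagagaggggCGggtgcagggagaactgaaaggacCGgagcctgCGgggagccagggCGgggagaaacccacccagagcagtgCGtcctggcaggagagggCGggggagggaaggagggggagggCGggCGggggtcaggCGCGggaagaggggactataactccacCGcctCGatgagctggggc

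The broad regions spread over the start and mostly into the gene. The outermost start within 1 kb of the midpoint lay inside 496 of 529 broad regions (93.8%) and 86.4% of narrow ones. From that start a broad region reached a median of 643 bp upstream and 1129 bp downstream, and a narrow one 369 bp and 579 bp. Starts further than 1 kb from the midpoint were not used, so bases counted as upstream can lie inside the gene, as at Slit2. The downstream reach was the longer one in 75.2% of broad promoters (95% exact binomial interval 71.3 to 78.9) and in 69.1% of narrow ones. Measured from the start nearest to the midpoint the shares were 62.9% and 55.3%. A median of 549 bp of a broad region was exon and 518 bp intron of its gene. At least 2 annotated starts lay inside 68.2% of broad and 68.6% of narrow regions. The shares and intervals treat regions as independent, which neighbouring or related genes are not, and cover counting error only.

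**Figure D1:**
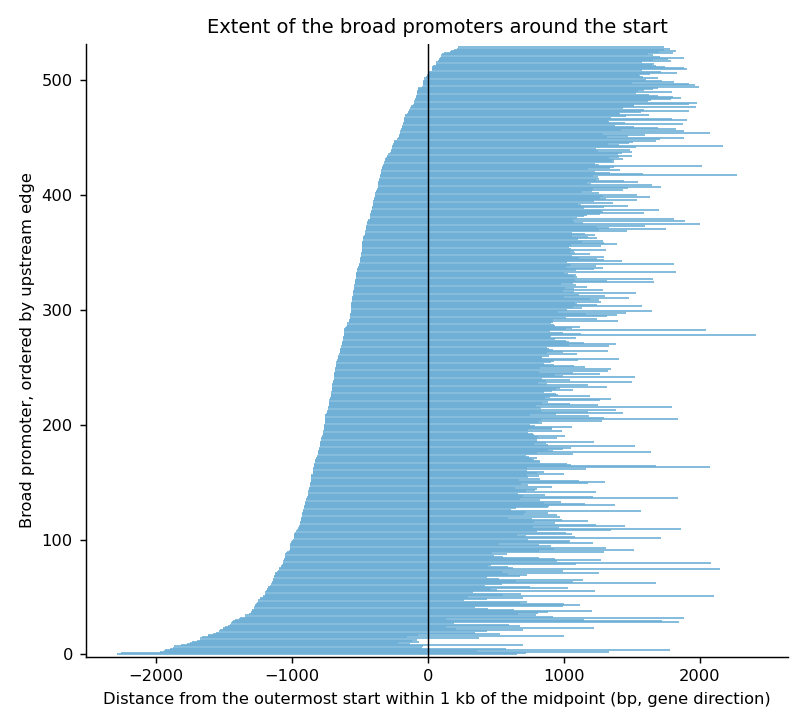
Extent of the 529 broad promoters (1 horizontal line each, ordered by upstream edge) in bp from the outermost start within 1 kb of the midpoint, in the direction of the gene. Most lines cross 0, and the median reach is 643 bp upstream and 1129 bp downstream. Bases left of 0 can lie inside the gene where it has a start further out.

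The 8 longest regions lay at Fat4, Chst2, Ppp2r3d, Egr1, Cdh2, Midn, Tef and Jun. Fat4, an atypical cadherin of planar cell polarity, had the longest region (3712 bp, chr3:38885008-38888719), 1932 bp before its start and 1780 bp of first exon. Its signal was 133 and 99.4 in Pou4f1 replicates 1 and 2 and 3.55 and 15.1 in the IgG libraries named IgG and negative. Both Pou4f1 values lay far above both controls. Chst2, a sulfotransferase gene, followed with 3318 bp and 165 and 110.1 against 5.51 and 8.57. Ppp2r3d, which encodes a regulatory subunit of protein phosphatase 2A, spanned 3300 bp with 1068 and 928 against 3.58 and 11.7. Its level was among the highest of any broad promoter, whereas Fat4 (mean 116) and Chst2 (mean 138) lay below the broad median of 152.

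The transcription factor genes Egr1, Tef and Jun were in this set. Egr1, an immediate-early gene, had 3289 bp with 211 and 229 against 18.5 and 10.7, and 62.7% of the gene lay under the region. Jun, a subunit of AP-1, had 3153 bp with 264 and 214 against 0 and 26.8, and 54.1% of the gene was covered. Because 1 IgG library was at 0 and the other was not, the spread of Jun was wide and limma did not call it (adjusted p = 0.0744). Tef, a clock-controlled bZIP factor gene, had the same length and 1230.1 and 1291 against 11.99 and 26.4. Cdh2, which encodes N-cadherin, had 3272 bp with 137 and 123 against 3.73 and 4.21. Midn, a nuclear protein gene linked to protein turnover, had 3242 bp with 118 and 77.7 against 11.3 and 12.9. Among these genes length and level did not go together, since Midn and Tef, close in length, lay at the low and the high end of the group.

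At the boundary of the rule, the regions of Dusp6, Ankrd34b and Itgb1 were 1500 bp long, and those of Bbx (1499 bp), Ppm1h (1498 bp) and Zmym5 (1498 bp) fell just short. Dusp6, a feedback phosphatase of ERK signalling, had 737 and 658 in Pou4f1 against 0 and 28.2. Ankrd34b had 89.5 and 69.9 against 8.13 and 9.19, and the integrin gene Itgb1 had 141 and 86.4 against 0 and 19.0. Just below the limit, Bbx had 206 and 159 against 0 and 28.2, Ppm1h 117 and 102 against 0 and 27.6, and Zmym5 204 and 117 against 20.6 and 19.0. The values on the 2 sides of the limit overlapped.

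Signal was the first of the measures compared between broad and narrow promoters. The length of a region was set by SEACR from the Pou4f1 signal itself, so length and signal are not independent and the comparison is a description. The lowest, median and highest value of broad promoters was 57.2, 172 and 1980.1 in Pou4f1 replicate 1 and 9.27, 125 and 2279 in replicate 2. In narrow promoters the medians were 181 and 129. In the library named IgG the medians were 7.12 in broad and 4.21 in narrow promoters, and in the library named negative 9.15 and 10.1. The Pou4f1 medians of broad and narrow promoters were thus close. How the deposited signal was averaged over a region is not stated. On the scale of log2(signal + 1), the median of broad minus narrow promoters was -0.06 ± 0.02 (SD, n = 2) in Pou4f1 and 0.26 ± 0.54 (SD, n = 2) in IgG. A two-sided exact permutation test over the libraries of this value gave p = 1, and the smallest p it can give with 2 against 2 is 0.333. With each value multiplied by the length of its region the Pou4f1 difference was 0.91, and at 2000 bp or more without this it was 0.0718, so its sign depends on these choices.

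The median signal was highest in the shortest promoters. It was 259 in replicate 1 and 176 in replicate 2 for promoters under 500 bp (n = 72), and 157 and 122 in the last 250 bp below the limit (n = 603). Within the broad promoters it went from 160.0 and 118 (the first 250 bp above the limit, n = 295) through 173 and 143 (the next 250 bp, n = 117) to 184 and 140.4 (2000 bp and more, n = 117). Among broad promoters the Spearman correlation of length with mean signal was 0.107 (n = 529 regions), given as a description since regions of 1 library share its depth. The upstream reach correlated with the mean signal at 0.247 and the downstream reach at -0.155.

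**Figure D2:**
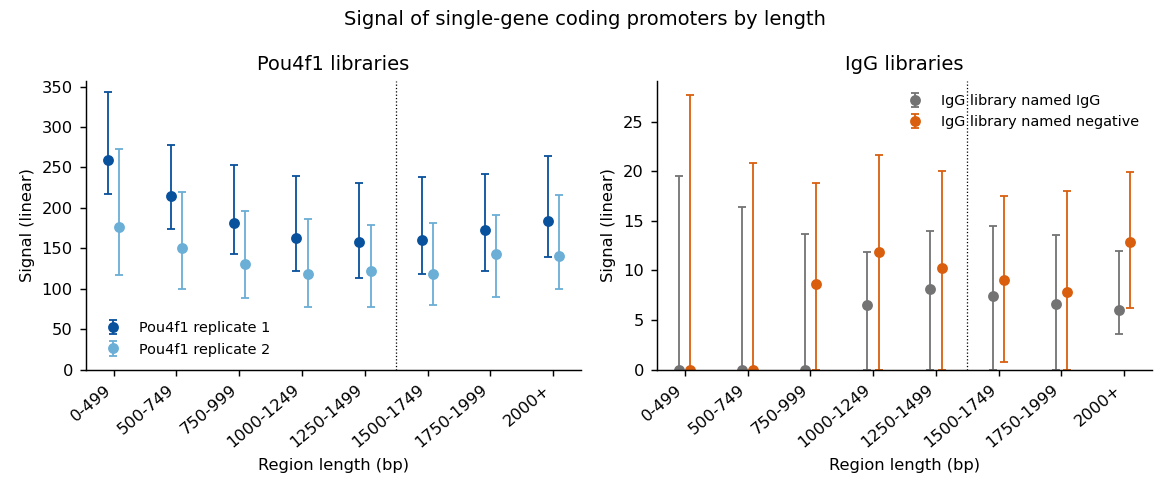
Signal (linear) of single-gene coding promoters by region length (bp), left for the 2 Pou4f1 libraries and right for the 2 IgG libraries on its own axis. Points are medians, bars the quartiles, and the dotted line separates narrow from broad (1500 bp). The Pou4f1 medians are 157 and 122 just before the line, 160.0 and 118 just after it, and 184 and 140.4 at 2000 bp and more.

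The 5 broad promoters with the highest mean Pou4f1 signal were those of Ell, Tef, Sgsm2, Ppp2r3d and Gsk3b. Ell, which encodes an RNA polymerase II elongation factor, was highest with 1980.1 and 2279 in the Pou4f1 replicates against 9.33 and 21.6 in IgG (limma, adjusted p = 0.00404). Its region (chr8:70538036-70540609) lay 1421 bp upstream and 1153 bp downstream of the start. Tef and Ppp2r3d, described above, and Sgsm2, a regulator of small GTPases, with 962 and 1042 against 21.7 and 17.4, came next. Gsk3b, a kinase of Wnt and insulin signalling, had 992 and 789 against 8.85 and 17.6. In all, 14 broad promoters had a mean Pou4f1 signal over 500 (2.65%), against 82 narrow ones (2.19%). At every one of the 5 named genes the Pou4f1 values were far above both IgG values. The 5 were picked for the highest Pou4f1 signal, so this follows from the choice.

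The comparison of Pou4f1 with IgG asked at which promoters the antibody's signal exceeded the control. SEACR had found the regions from the Pou4f1 signal, and IgG was the paper's control for that step. Higher Pou4f1 signal was thus built into the choice of regions. The direction and the counts below are therefore descriptions and not independent evidence of binding. In the limma fit over all 8038 regions, 385 of 529 broad promoters were higher in Pou4f1 (72.8%, 68.8 to 76.5; Benjamini-Hochberg adjusted p under 0.05), where 64.8% of all regions were called. Of narrow promoters, 2262 of 3749 were called (60.3%). Scaling by column totals, which are sums over regions found from the Pou4f1 signal, makes that sum equal in all libraries. Fewer calls under it were thus fixed in advance. The order of the rates in broad and narrow promoters turned with the scaling of IgG. It went to 6.62% of broad and 20.2% of narrow promoters with column totals as library sizes and 13.04% and 23.6% with IgG taken as 4 times shallower. It also turned without Pou4f1 replicate 1 (88 broad promoters, 16.6%, against 26.97% of narrow ones) and without replicate 2 (111, 20.98%, against 28.8%). None of the 529 was lower (0 also at an unadjusted p under 0.05 in limma, 0.224% of all regions called lower). Each Pou4f1 value exceeded each IgG value at 524 of 529 broad promoters (99.1%) and at 99.01% of narrow ones, against 96.5% of all regions. Calls followed the zeros in IgG, since a region with 1 library at 0 and 1 above it has a wide spread. Where neither IgG library was at 0, 253 of 304 broad promoters (83.2%) and 76.3% of narrow ones were called. With 1 library at 0 the counts were 98 of 191 (51.3%) and 536 of 1724 (31.1%), and with both at 0 they were 34 of 34 and 772 of 775. A longer region is less often empty in a sparse control, and 57.5% of broad against 33.3% of narrow promoters had IgG signal in both libraries. These rates by IgG zeros are those of the unscaled values with all 4 libraries.

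The size of the difference had a median of 4.40 (log2) in broad and 4.97 in narrow promoters. Both IgG libraries were at 0 in 6.43% of broad and 20.7% of narrow promoters, and there the difference depends on the added 1. How far this moved the medians was not tested. The largest differences were at Rab40c, a ubiquitin ligase adaptor gene (8.84), and Uba1, the ubiquitin-activating enzyme gene (8.53). Next were Fem1c, a ubiquitin ligase receptor gene (8.48), Sntb2, a syntrophin gene (8.35), and Pnrc1, a nuclear receptor coactivator gene (7.96). Rab40c had 492 and 427 in Pou4f1, and both IgG libraries were listed at 0. Uba1 had 723 and 752 against 2.97 and 0. With IgG at 0 the log2 differences of these genes depend on the added 1. The smallest were at Cachd1, a calcium channel modulator gene (60.5 and 31.6 against 33.9 and 24.2, log2 difference 0.59), Rgs19, a regulator of G-protein signalling (57.2 and 23.8 against 25.03 and 14.7, 0.91), and the sterol transporter gene Abcg4 (82.1 and 39.7 against 14.5 and 34.1, 1.32). None of these 3 was called, and at Cachd1 and Rgs19 the groups overlapped. The groups overlapped at 5 broad promoters in all, Rnpepl1 and Tns2 among them, and replicate 2 was at most 31.6 in each of the 5.

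The replicates were then compared. Replicate 2 was lower than replicate 1 at most promoters, with a median ratio of 0.727 in broad and 0.694 in narrow ones. The median ratio was 0.810 over all regions and 1.03 over those that were not single-gene promoters. Replicate 1 was over 2-fold above replicate 2 at 62 broad promoters (11.7%, 9.10 to 14.8) and at 786 narrow ones (20.97%, 19.7 to 22.3). The reverse was seen at 1 broad promoter, Klhl1, and at 16 narrow ones. Over all regions the share was 15.3%, and 3.44% for the reverse. The share of promoters with a 2-fold excess fell with length, from 27.8% under 500 bp through 15.9% in the last 250 bp below the limit to 12.5%, 11.97% and 9.40% in the 3 classes of broad promoters. At a GC content of 60% or more it was 11.2% in broad and 22.2% in narrow promoters. Over the 529 broad promoters the replicates correlated with Pearson's r = 0.936 and Spearman's rho = 0.846, and over the narrow ones with 0.808 and 0.756, given as descriptions across regions. With 1 library per replicate this difference has no test. Within the broad promoters the ratio rose with the level, from a median of 0.640 in the lowest tertile by mean signal (176 promoters, 39.4 to 119) to 0.735 in the middle tertile and 0.797 in the highest (177 promoters, 191 to 2129).

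Single promoters departed from this. Klhl1, which encodes an actin-binding kelch protein of neurons, had 175 in replicate 1 and 412 in replicate 2, against 21.9 and 7.41 in IgG. Dusp4, another ERK phosphatase, had 139 and 244, and the histone H4 gene Hist1h4h 206 and 341. At the other end, Asap1, a GTPase-activating protein gene of the cytoskeleton, had 99.02 and 9.27 against 7.39 and 9.14, so that replicate 2 did not stand apart from IgG there. The gene 1600014C10Rik had 288 and 45.9, and the tensin gene Tns2 79.0 and 13.97. None of these last 3 was called by limma.

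**Figure D3:**
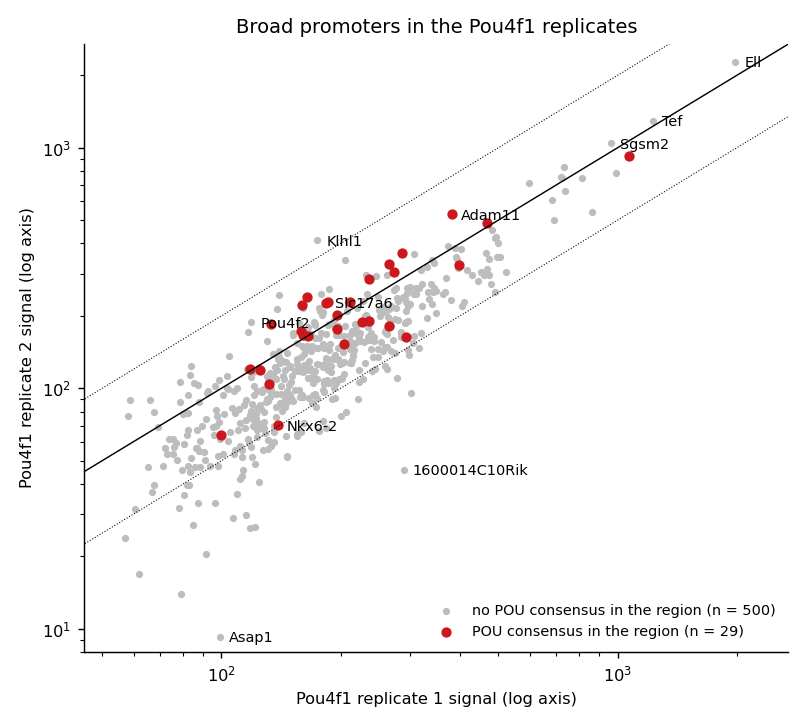
Signal of the 529 broad promoters in Pou4f1 replicate 1 (x) and replicate 2 (y), both on log axes. The solid line is equality and the dotted lines a 2-fold difference, red points hold the POU consensus in the region (n = 29) and grey ones do not (n = 500). Most grey points lie below equality (median ratio 0.711), and red points lie around it (median ratio 1.03).

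Promoters with the POU consensus stood at another ratio. The 29 that held it had medians of 196 in replicate 1 and 191 in replicate 2, with a median ratio of 1.03, and replicate 2 was the higher one in 16 of them (55.2%). The 500 without it had medians of 169 and 123, a median ratio of 0.711, and replicate 2 was higher in 60. In narrow promoters the same contrast was seen, with a median ratio of 1.03 in 74 with the consensus and 0.690 in 3675 without. Regions that were not single-gene promoters, with or without the consensus, also had a median ratio of 1.03, so this value is not particular to the consensus. None of the 29 had the 2-fold excess of replicate 1 that 62 of the 500 had. The 29 were longer (median 2027 against 1709 bp), and a longer region holds more letters in which a pattern can occur. This split was made after the data were seen and has no test.

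The members with the consensus at the centre had replicate ratios from 0.900 to 1.38. Prima1 had 469 and 487 against 5.96 and 0, and Adam11 381 and 528 against 17.0 and 14.8. Baz2b had 196 and 176 against 12.7 and 0, and Kcnc1 166 and 165 against 15.8 and 0, the last not called by limma (adjusted p = 0.0597). Of the sites shown above, Slc17a6 had 184 and 227 with both IgG libraries listed at 0, Syt13 272 and 304 against 19.2 and 0, and Dlx1 264 and 330.0 against 5.27 and 18.8. Nkx6-2 differed from these, with 139 and 70.1 against 27.4 and 6.98. Other members with the consensus were Adcyap1, a neuropeptide gene expressed in some RGCs (134 and 184 against 4.06 and 4.88), Prom1, a gene of membrane protrusions (285 and 365 against 2.74 and 0), and the netrin gene Ntn4 (99.7 and 63.9 against 7.34 and 0).

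CpG-poor members were few but included some of the strongest. The CpG ratio was up to 0.4 in 27 broad promoters, from 0.4 to 0.6 in 67 and above that in 435. Their median replicate ratios were 0.881, 0.755 and 0.709, and the consensus was found in 6, 4 and 19 of them. Of the 27, 21 lay at a start inside the gene body, beyond its 5′ end. Sgsm2, Uba1 and the ubiquitin ligase gene Rnf123 (733 and 830 against 16.8 and 0) were CpG-poor and had a mean over 500. Opn4, which encodes melanopsin, the photopigment of intrinsically photosensitive RGCs, had 176 and 216 against 7.12 and 9.55 in 1713 bp (CpG ratio 0.264). Both Pou4f1 values of Opn4 were above both IgG values, as at 99.1% of all broad promoters, and limma called it (adjusted p = 0.00562). The paper describes intrinsically photosensitive RGCs as lacking Pou4f1, and these libraries were not sorted by cell type. Opn4 and Rnf123 were named after their values were seen.

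In all, 92 broad promoters lay at an inner start, with the 5′ end of the gene outside the region and more than 1 kb from its midpoint. They had medians of 174 and 133 and a ratio of 0.779. Of these 92, 63 were called (68.5%), beside 72.8% of all broad promoters and 64.8% of all regions. GENCODE lists starts of transcripts without a coding sequence for these genes too. Of the 529 members, 500 lay within 1 kb of the start of a protein-coding transcript of the same single gene, and of the 92 at inner starts 68 did. Sgsm2, Rnf123, Opn4, Slc17a6, Kcnc1 and Baz2b were among those that did not, so the word promoter rests there on a noncoding transcript model.

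Gene classes were the third measure of the comparison. A total of 15 classes, set by gene symbol, were counted among the genes of broad and narrow promoters, with exact binomial intervals and no enrichment test. Axon guidance and adhesion genes made up 3.78% of broad promoters (20 regions, 2.32 to 5.78) and 1.52% of narrow ones (57 regions, 1.15 to 1.97), the one class of the 15 whose intervals lay apart. Developmental transcription factors, pooled from the homeobox, bHLH, Sox, Fox and T-box, and zinc-finger developmental classes, made up 4.54% (24 regions, 2.93 to 6.68) and 2.48% (93 regions, 2.01 to 3.03). Broad promoters held 0 respiratory chain genes (upper bound 0.695%) against 18 narrow ones (0.480%), 4 splicing factors (0.756%) against 52 (1.39%), and 7 Zfp genes (1.32%) against 84 (2.24%). Ribosomal proteins (0.945% and 0.907%) and proteasome and ubiquitin genes (2.08% and 1.97%) had nearly the same share in both.

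**Figure D4:**
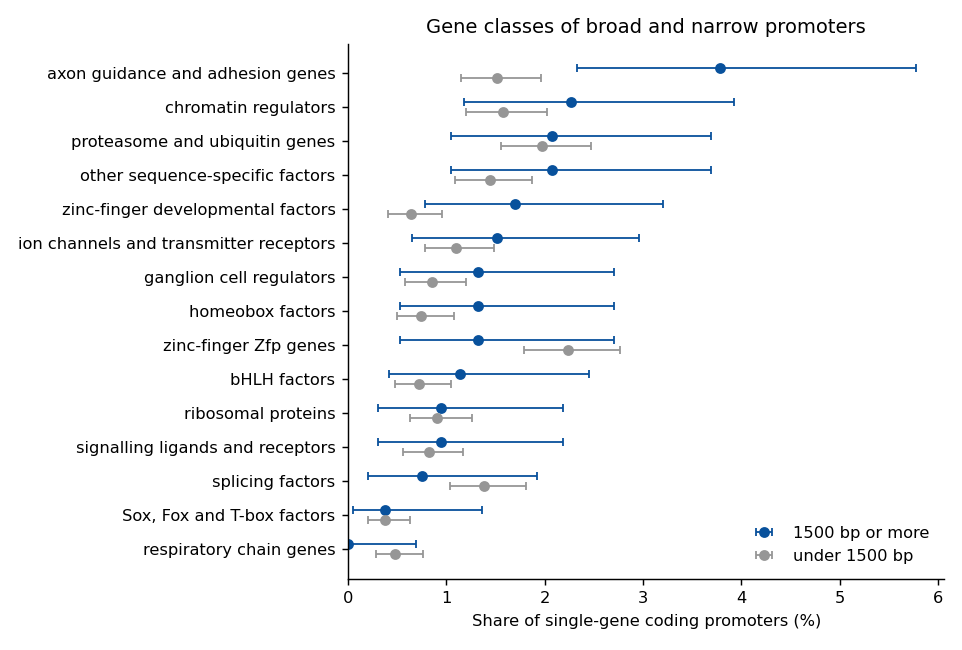
Share of broad (blue) and narrow (grey) single-gene coding promoters whose gene belongs to each of 15 classes, in percent, with 95% exact binomial intervals. Axon guidance and adhesion genes stand highest among broad promoters (3.78% against 1.52%), and respiratory chain genes have 0 broad promoters.

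Among regulators and markers of the ganglion cell lineage, a class set by gene symbol, 7 broad promoters and 32 narrow ones were found. All 7 were called higher in Pou4f1 and 22 of the 32 were. The rates were 72.8% over all broad promoters, 60.3% over all narrow ones and 64.8% over all regions. The class was chosen with earlier results of these data known, so it is not independent evidence. Pou4f2 had 119 and 188 against 0 and 8.99 (log2 difference 5.57, SE 1.39, limma adjusted p = 0.0417), and its whole region of 1582 bp lay upstream of the start. Neurog2, a proneural bHLH factor gene of progenitors, had 152 and 169.8 against 2.56 and 11.9, and its whole region of 1641 bp lay inside the gene. At both genes replicate 2 was the higher, unlike at most broad promoters.

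Dlx1, a homeobox factor gene of developing RGCs and amacrine cells, had the highest level of the 7, with its values given above. Irx2, an Iroquois homeobox gene, had 259 and 208 against 15.4 and 27.1, the highest IgG values of the 7. Ebf3, a factor of neuronal differentiation, had 153 and 97.9 against 10.1 and 5.53 over 2331 bp. Hes6, a bHLH gene that promotes neurogenesis, had 172 and 118 against 7.83 and 17.97, and 60.8% of the gene was covered. Nefm, the medium neurofilament gene of long axons, had 146 and 128 against 14.7 and 17.4. In all 7 each Pou4f1 value exceeded each IgG value, as at 99.1% of all broad promoters and 96.5% of all regions.

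**Figure D5:**
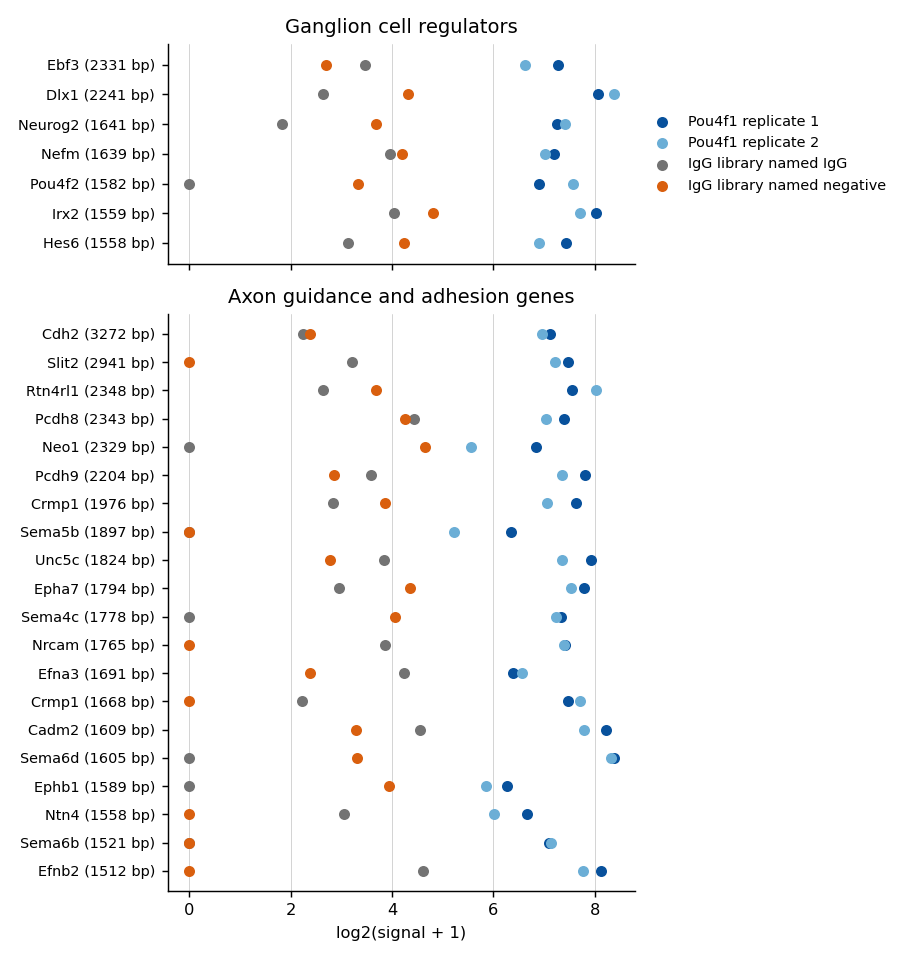
Value of log2(signal + 1) in the 4 libraries at the broad promoters of 7 ganglion cell regulators (top) and 20 regions of axon guidance and adhesion genes (bottom), each ordered by length. Both Pou4f1 points lie right of both IgG points in every row, as at 99.1% of all broad promoters and 96.5% of all regions. Points at 0 are libraries with no signal there, which overlap at Sema5b and Sema6b.

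Guidance and adhesion genes encode the cues and receptors by which growing axons and dendrites find their paths. Their 20 regions belonged to 19 genes, and 15 were called (72.8% of all broad promoters were), with medians of 172 and 148 in the Pou4f1 replicates and a median log2 difference of 4.67. Slit2 had 176 and 147 against 8.30 and 0 over 2941 bp. Of these, 2282 bp lay upstream of the outermost start within 1 kb of the midpoint. The 5′ end of the gene lies further out but inside the region, and 2515 bp of the region was Slit2 exon. The netrin receptor gene Unc5c had 242 and 163 against 13.4 and 5.85, and the Eph receptor gene Epha7 219 and 184 against 6.80 and 19.6. The ephrin gene Efnb2 had 276 and 217 against 23.3 and 0, and Sema6d, a transmembrane semaphorin gene, 330.1 and 318 against 0 and 8.86, the highest pair of the class. Neo1, a netrin and repulsive guidance receptor gene, had 114 and 45.8 against 0 and 24.2 and was not called (adjusted p = 0.142). Apart from Slit2 these genes were named after their values were seen.

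Among the developmental factors, 17 of 24 were called, where 72.8% of all broad promoters and 64.8% of all regions were. Of the 7 homeobox promoters, among them those of Dlx1, Nkx6-2, Pbx4, Pou4f2 and Irx2, 5 were called. Nkx6-2 missed the threshold (adjusted p = 0.0669). Of the bHLH genes Bhlhe22, Neurog2, Id4, Hes6, Myc and Arntl, 5 were called. Bhlhe22, a repressor gene of neuronal subtypes, was the exception, with 155 and 132 against 5.82 and 52.4. Foxo3, a forkhead gene of stress responses, had 169 and 118 against 17.3 and 9.55, with 2258 bp of its 2980 bp upstream of the start, and Foxk2 had 110.1 and 66.9 against 13.95 and 9.36. Of the 9 zinc-finger developmental genes 5 were called, among them Egr1 and Klf13, a Krüppel-like factor gene with 239 and 169 against 21.8 and 23.7.

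Of the 11 other sequence-specific factor genes 7 were called, beside 72.8% of all broad promoters. Srf, the serum response factor gene, had 134 and 57.3 against 6.42 and 18.4 and was not among them (adjusted p = 0.0517). Of the 5 signalling genes 4 were called. The Wnt receptor gene Fzd8 had 273 and 255 against 1.38 and 0, with 2419 bp of its single exon under the region, and Spred2, an inhibitor gene of Ras signalling, 122 and 78.3 against 2.32 and 5.08. Ion channel and transmitter receptor genes had 8 broad promoters, 4 of them called, and a median signal of 90.9, where all broad promoters had 152. Kcnn2, a calcium-activated potassium channel gene, had 208 and 209 against 16.4 and 50.4.

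All 12 chromatin regulators with a broad promoter were called, and their median signal was 193. The counts called in this class and the next ones stand beside 72.8% of all broad promoters and 64.8% of all regions. Kdm6a, an X-linked histone demethylase gene, had 297 and 137 against 4.67 and 24.2, and the Trithorax-type gene Kmt2e 202 and 142 against 5.47 and 0. Of 11 proteasome and ubiquitin genes 9 were called, with the highest class median, 201. Fbxl14, an F-box gene, had 162 and 123 against 0 and 11.1. Ribosomal protein genes had the lowest class median, 82.3, and 3 of 5 were called. Rpl10a had 104 and 60.6 against 15.0 and 15.4, and Rpl36 66.0 and 89.5 against 7.08 and 8.53. All 4 splicing factors were called, among them U2af2 with 173 and 94.4 against 6.66 and 13.8, and Tra2b with 128 and 72.5 against 7.15 and 0. Of the 7 Zfp genes 6 were called. Zfp335 had 85.5 and 47.3 against 4.92 and 11.9, and Zfp219 157 and 118 against 0 and 15.2 (adjusted p = 0.0638).

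Short genes could lie largely under a broad region. The gene was under 5 kb long at 13.6% of broad promoters (72 of 529) and at 7.66% of narrow ones, and over 50% of it was covered at 35 broad (6.62%) and 49 narrow (1.31%) promoters. At these 35 the region was gene body as much as promoter. Among them were Egr1, Jun, Jund, Hes6, Neurog2, Nkx6-2, Bhlhe22, Gadd45a, Gadd45g and Rhob, all of them short. In 8 the whole gene was covered. These were the replication-dependent histone genes Hist1h4h and Hist1h2bb, the DNA damage response gene Gadd45g, the tubulin cofactor gene Tbcc, Rpl36, and the predicted genes Gm13275, Gm13289 and Gm13290. Hist1h2bb had 719 and 759 against 23.6 and 18.6, and Gadd45g, much lower, 90.5 and 54.3 against 11.5 and 3.40.

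Some values rest on sequence that the genome holds more than once. Gm13275, Gm13288, Gm13289 and Gm13290 lie in a cluster on chromosome 4, and each, as well as Gpr137b, has a copy elsewhere of at least 90% identity over at least 50% of the region. Some reads from such copies may not be told apart, so these 5 values are uncertain. How reads mapped there was not examined. The 4 clustered regions had IgG signal from 37.4 to 85.5, far above the median of other broad promoters, and Pou4f1 signal from 143 to 340.0. Without the 5, 382 broad promoters were called.

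Of all genes, 3 had more than 1 broad promoter. At Crmp1, an axon guidance mediator gene, the region at the outer start (1976 bp) had 197 and 132 against 6.17 and 13.5, and the region further in (1668 bp) 177 and 209 against 3.66 and 0. Replicate 1 was the higher at the outer region and replicate 2 at the inner one. At Adam11 the region with the consensus is given above, and the other (2138 bp) had 108 and 79.2 against 11.2 and 0. At Ing1, a growth inhibitor gene, the region of 1616 bp had 474 and 297 against 35.6 and 34.7, and that of 2113 bp had a mean Pou4f1 signal of 146. The Pou4f1 values of the paired regions overlapped at Crmp1 and did not overlap at Adam11 and Ing1.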

How the data were processed

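CUT&Tag was done on pools of 4 wildtype E16.5 retinas with anti-Pou4f1 (n = 2) and rabbit IgG (n = 2). A further H3K9AC library (n = 1) was not analysed here. The authors trimmed the reads, masked low-complexity sequence, aligned them to mm10 with Bowtie2 2.4.5 and ran SEACR in its relaxed mode to find regions. The deposited values are signal, with 4 values per region, 1 from each library. The averaging and scaling, and any pooling of replicates before the calling, are not stated in the sources consulted, and the depth is unknown. The 2 control columns, named IgG and negative, carry no replicate number, and the second was counted as IgG, since no other negative control is described. Column totals were 1758369 and 1656394 for the Pou4f1 replicates and 88179 and 120664 for IgG.

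Starts and exons came from GENCODE M21, sequence from GRCm38 and upstream bases from RefSeq, where 401 of the 526 member genes matched. Signal was tested as log2(signal + 1) with limma 3.58.1 (R 4.3.3) over all 8038 regions, Pou4f1 against IgG, with no covariates or scaling, Benjamini-Hochberg adjustment and a threshold of 0.05. An exact permutation test of 2 against 2 libraries cannot reach it. A region was also counted where both Pou4f1 values exceeded both IgG values. The fit and the motif search were tested on simulated data. With 8038 simulated regions the fit called 3 of 200 regions raised 8-fold, and 93.7% of 7838 raised 37.2-fold, the median of the table. An 8-fold change at a small share of the regions was thus mostly missed. The runs differed in both the size of the change and the share of regions, so they cannot separate these. All simulated regions had the same spread, unlike those of the data. Near copies were sought with minimap2 2.31. Other steps used Python 3.11.15, pandas 2.3.3, scipy 1.17.1, pysam 0.24.0 and matplotlib 3.10.9.

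The members, gene classes and named genes were chosen with earlier results of these data known. Named were the 8 longest members, the 5 highest by mean Pou4f1 signal, the 5 largest and 3 smallest differences, the 3 highest and 3 lowest replicate ratios, all ganglion cell regulators, the 2 longest of each other class, the 3 regions on either side of 1500 bp, and members with the POU consensus at the centre. A gene that this rule names is not reported here. Alternatives were other pseudocounts (0.1 and 10), IgG scaling, length limits (2000 bp, or 250 bp lower), start distances, and each library left out.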

Additional observations from a re-analysis of the deposited data

How the results depend on the processing

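Of 42 alternative values, 21 were labelled the same as the main value, but the label was loose. It took in 512 broad calls with a pseudocount of 10, beside 385 in the main fit. It also took in a POU consensus share of 1.71% at 2000 bp or more, beside 0.756%. The 385 broad promoters called by limma became 244 with a pseudocount of 0.1 and 69 with IgG taken as 4 times shallower. They became 35 with column totals as library sizes, a scaling that equalises the summed signal of these regions by construction. The calls became 767 with the length limit lowered by 250 bp and 87 at 2000 bp or more, where other regions enter the count. Leaving out 1 library in turn gave 88 to 522 calls. These were 88 without Pou4f1 replicate 1, 111 without replicate 2, 511 without the library named IgG and 522 without the one named negative, of which 88, 108, 385 and 385 were among the 385. The 2262 narrow promoters became 3522 with a pseudocount of 10, 884 with IgG taken as shallower, 759 with column totals and 1011 to 3686 with 1 library left out. The share called was higher in broad than in narrow promoters in the main fit and lower with IgG taken as shallower, with column totals and without either Pou4f1 library, so both the number of calls and this order depend on the scaling and on single libraries. The signal of broad minus narrow promoters, -0.06 in log2, was 0.91 as signal times length, 0.0718 at 2000 bp or more, -0.0197 with a start within 500 bp and -0.13 with the limit lowered by 250 bp, the last chosen after seeing the data, so that its sign turned under the first pair. The share of broad promoters with replicate 1 over 2-fold higher, 11.7%, was 8.70% with replicates scaled to the same column total. The share at developmental transcription factor genes, 4.54%, was 8.55% at 2000 bp or more. The share with the POU consensus, 0.756% at the centre, was 5.48% over the whole region. Apart from the cases where the regions counted differ by construction, the cause was not tested. Removing near copies, chosen after seeing the data, left 382 calls. No paired analysis was possible because the IgG columns carry no replicate number. What depth limits could not be set, since the depth of the libraries is unknown.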
